A study of Arabidopsis thaliana with 6 samples.

Results

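The genes described here encode the nuclear auxin receptors of Arabidopsis thaliana and the co-repressors that act behind them. There were 10 of them among 32833 genes in the count table, chosen by locus without a cut on a measured value. Earlier results of these data were known when they were chosen. The 6 receptor genes were TIR1 (AT3G62980), AFB1 (AT4G03190), AFB2 (AT3G26810), AFB3 (AT1G12820), AFB4 (AT4G24390) and AFB5 (AT5G49980). The 4 co-repressor genes were TPL, or TOPLESS (AT1G15750), TPR1 (AT1G80490), TPR2 (AT3G16830) and TPR3 (AT5G27030). Levels were measured by RNA sequencing of roots of wild type Col-0, the standard laboratory accession, taken 3 days after germination. The mock group had 3 libraries from seedlings kept for 1 h in liquid half-strength Murashige and Skoog medium, and the IAA group had 3 libraries from seedlings kept for 1 h in that medium after addition of the natural auxin IAA (indole-3-acetic acid) at 1 µM. Each library was made from about 100 roots after removal of ribosomal RNA. The labels do not say whether the 3 samples of a group were grown and treated separately, so p-values measure only how far these samples spread, which may be technical.

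TIR1 and its AFB relatives are F-box proteins, the substrate-binding subunits of SCF ubiquitin ligases. Auxin sits between such a receptor and an Aux/IAA repressor protein and holds them together, after which the Aux/IAA protein is ubiquitinated and degraded. Aux/IAA proteins otherwise silence auxin response genes by binding TOPLESS family co-repressors through a short EAR motif, and these in turn bring in histone deacetylases. In roots this pathway controls elongation, gravitropism and lateral root formation, and the microRNA miR393 is known to cut transcripts of several of the receptors.

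The miR393 site is shown because it is a sequence feature that divides the receptor genes. MIR393a on chr2:16652111-16652132 and MIR393b on chr3:20691657-20691678, both on the plus strand of TAIR10.1 as RefSeq annotates it, encode the same 22-base mature RNA. Its seed, bases 2 to 8, is in capitals. Below it stand the best ungapped matches to its reverse complement in the transcripts of the 6 receptors, 5′ to 3′ on the transcript strand. In these, capitals mark bases that form a Watson-Crick pair with the miRNA and lower case marks those that do not.
miR393 (mature, from MIR393a and MIR393b): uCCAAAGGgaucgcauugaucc
TIR1 (chr3:23273727-23273748, minus strand): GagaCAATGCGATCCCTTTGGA
AFB1 (chr4:1405341-1405362, minus strand): GagaCcATGCGATCCCTTTGGA
AFB2 (chr3:9870237-9870258, plus strand): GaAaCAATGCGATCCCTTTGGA
AFB3 (chr1:4369085-4369106, minus strand): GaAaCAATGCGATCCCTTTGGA
AFB4 (chr4:12615419-12615440, minus strand): GGtTCAAaGaGcTtaCTTTGGt
AFB5 (chr5:20335762-20335783, minus strand): GGATCtcTtgttTCCCTgaGGA

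The sites of TIR1, AFB1, AFB2 and AFB3 lay in the last exon, within the coding sequence. AFB2 and AFB3 had the identical site, with 20 of 22 bases paired, and TIR1 had 19. AFB1 had 18, and differed from TIR1 by the substitution A6C, counted from the 5′ end of the site. Only Watson-Crick pairs are counted here as paired. TIR1 and AFB1 each had 1 further base in a G:U pair, while AFB2 and AFB3 had 0. Of 27444 nuclear protein-coding genes searched in the same way, 3 had at least 19 paired bases, and these were TIR1, AFB2 and AFB3. At least 18 were found in 7 genes, or 0.0255%. The best matches in AFB4 and AFB5 had 15 and 14 paired bases. Matches of at least 15 were found in 1234 genes, or 4.5%, so many other genes matched at least as well as AFB4 and AFB5. The share with at least 14 was not computed.

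Facts of the whole series set the frame. Library totals ran from 20808439 to 20984444 counts. GH3.3, an early auxin-induced amido synthetase gene, went from 5.25 to 985 CPM (mean, n = 3 per group), with no overlap between the groups (log2 change 7.55, SE 0.19, edgeR adjusted p = 4.24e-06). All 11 root marker genes of the list were tested and 1 of them, WOX5 of the quiescent centre, was called (log2 change 0.93, edgeR adjusted p = 0.0272). WOX5 was not called with the replicate block, with the green shoot marker level as a term, or without mock 1, mock 2, IAA 2 or IAA 3 (edgeR adjusted p from 0.0576 to 0.146). Their summed level was between 607.4 and 623.6 CPM in mock and between 710.9 and 738.5 CPM in IAA. Transcripts of 8 green shoot marker genes were also present, at 1607, 170.9 and 2568 CPM in mock 1 to 3 and at 162.6, 855.3 and 208 CPM in IAA 1 to 3, with log2 changes from -2.26 to -1.05 and 0 of 8 called. In bulk root samples, fewer cells of a type and less RNA per cell cannot be told apart.

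None of the 10 genes passed the test between IAA and mock. The test was edgeR's quasi-likelihood test over 19778 genes, with Benjamini-Hochberg adjusted p under 0.05 as the threshold, and 4.23% of all genes tested passed it. Among the 10, 0 had an unadjusted p under 0.05, against 17.4% of all genes, and 0 were called by DESeq2 or limma-voom. All 10 passed the filter on low counts. Levels are given as CPM, counts scaled to 1e+06 per library after TMM normalization.

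**Figure D1:**
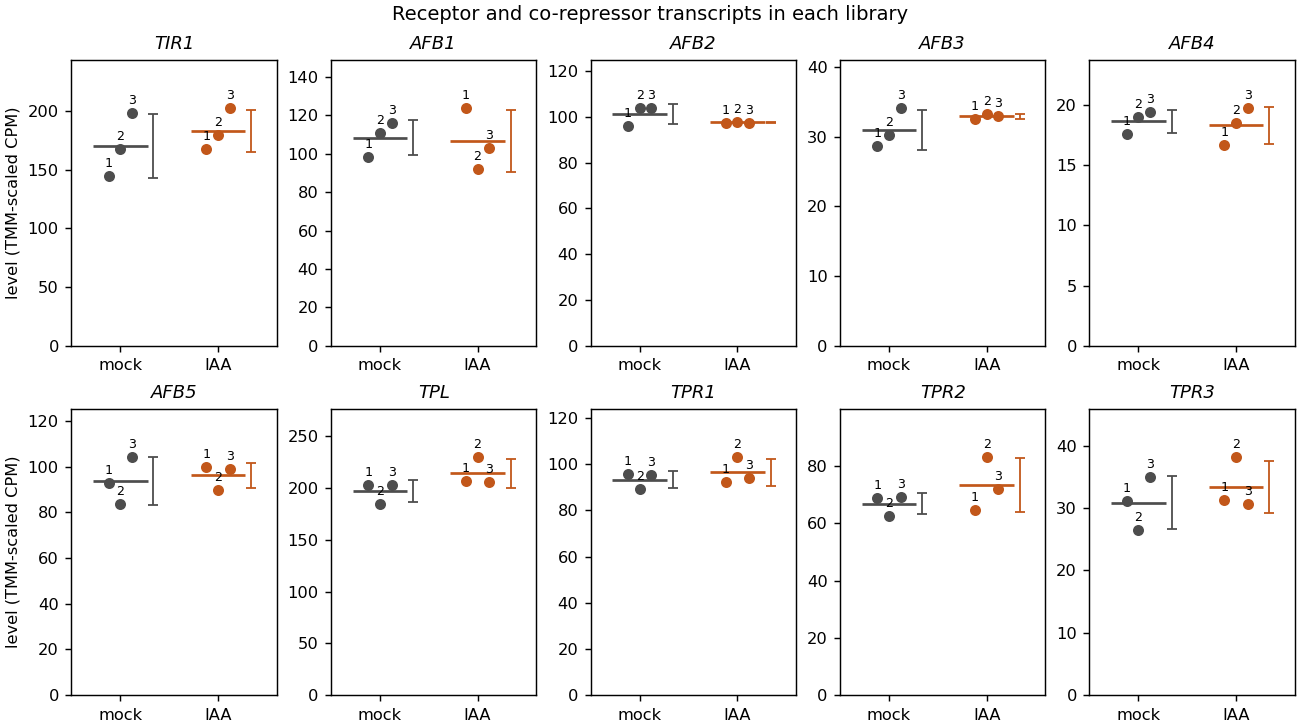
Level in TMM-scaled CPM (y axis, from 0, with its own scale in each panel) of the 10 genes in the 3 mock and 3 IAA libraries (x axis). Points are libraries with their replicate number, horizontal lines are group means and the bars beside them are 1 SD. The groups overlap in every panel except TPL, where the lowest IAA library was at 206 CPM and the highest mock library at 203 CPM.

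Among the receptors TIR1, the founding member of the family, was at 144, 168 and 198 CPM in mock 1 to 3 and at 168, 179 and 203 CPM in IAA 1 to 3. The groups overlapped over most of their range, with mock 1 the lowest and IAA 3 the highest library. The log2 change was 0.11 with SE 0.14 (95% interval -0.21 to 0.43, edgeR adjusted p = 0.775). With single libraries left out it ran from 0.0026 without mock 1 to 0.23 without mock 3.

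AFB1, whose product is known for fast responses of roots to auxin that do not need transcription, was at 98.0, 111 and 116 CPM in mock and at 124, 92.3 and 103 CPM in IAA. IAA 1 was the highest library of all and IAA 2 the lowest, so the spread within the IAA group was as wide as that over all libraries. The log2 change was -0.03 with SE 0.13 (95% interval -0.33 to 0.28, edgeR adjusted p = 0.955). Its ratio to TIR1 was 0.68, 0.662 and 0.585 in mock and 0.739, 0.515 and 0.508 in IAA, again with IAA 1 apart from the other IAA libraries.

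AFB2 and AFB3 form the closest pair of receptors, with 86.4% identical residues over 575 aligned positions of their translated coding sequences. AFB2 was at 96.1, 104 and 104 CPM in mock and at 97.5, 97.9 and 97.5 CPM in IAA. Its highest and lowest libraries differed by only 1.08-fold, and both were mock libraries. AFB3, known from work on root responses to nitrate, was at 28.6, 30.2 and 34.2 CPM in mock and at 32.515, 33.284 and 33.004 CPM in IAA. Its IAA libraries also lay inside the mock range. The log2 changes were -0.05 (95% interval -0.24 to 0.14) for AFB2 and 0.09 (95% interval -0.15 to 0.32) for AFB3.

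AFB4 and AFB5 are the other pair, with 79.3% identical residues, and their products are known as the main receptors of the synthetic auxin picloram. AFB4 was the receptor transcript with the fewest counts, at 17.589, 18.974 and 19.39 CPM in mock and at 16.7, 18.5 and 19.8 CPM in IAA. AFB5 was at 93.0, 83.5 and 104 CPM in mock and at 99.7, 89.8 and 99.1 CPM in IAA. In both genes the groups overlapped. The log2 changes were -0.03 (95% interval -0.29 to 0.23) for AFB4 and 0.04 (95% interval -0.21 to 0.29) for AFB5. The log2 changes of the 4 receptors with the longest miR393 match ran from -0.05 to 0.11, and those of AFB4 and AFB5 lay within that range.

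TPL, the founding co-repressor, was at 203, 185 and 203 CPM in mock and at 207, 230 and 206 CPM in IAA. All 3 IAA libraries were above all 3 mock libraries, which made TPL the only one of the 10 genes without overlap. Of all genes tested, 22.1% had no overlap. The log2 change was 0.12 with SE 0.095 (95% interval -0.10 to 0.34, edgeR adjusted p = 0.592); IAA 1 and IAA 3 lay just above mock 1 and mock 3, and IAA 2 stood higher.

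TPR1, the closest relative of TPL with 93.7% identical residues, was at 95.7, 89.2 and 95.2 CPM in mock and at 92.3, 103 and 93.8 CPM in IAA. The groups overlapped, and the log2 change was 0.05 (95% interval -0.16 to 0.25). TPR2 was at 68.8, 62.7 and 69.1 CPM in mock and at 64.7, 83.3 and 72.1 CPM in IAA, with a log2 change of 0.13 (95% interval -0.13 to 0.39). TPR3 was at 31.1, 26.5 and 35.1 CPM in mock and at 31.4, 38.3 and 30.7 CPM in IAA, with a log2 change of 0.11 (95% interval -0.21 to 0.44). In both genes IAA 2 lay above every other library. IAA 3 also lay above the mock range in TPR2, and the other IAA libraries lay within it.

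**Figure D2:**
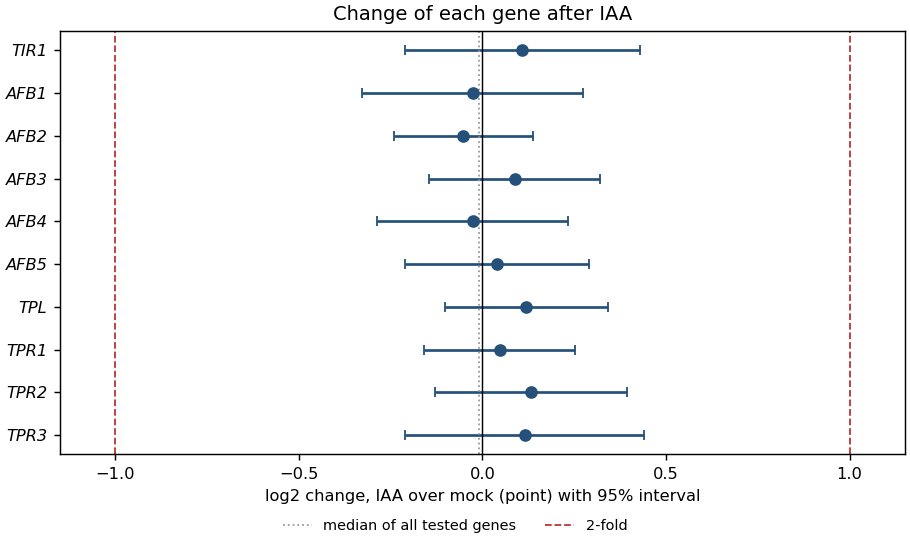
Log2 change of IAA over mock (x axis, points) with its 95% interval (bars) for each of the 10 genes (y axis). The dotted line is the median of all tested genes, -0.00847, and the dashed lines mark a 2-fold change in either direction. Every interval includes 0 and lies inside the dashed lines.

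The intervals bound the size of change that these data allow. The lowest bound was that of AFB1, 0.797-fold of mock, and the highest that of TPR3, 1.36-fold, so each of the 10 intervals excluded a 2-fold change. The median log2 change was 0.0068 for the receptors and 0.12 for the co-repressors, beside -0.00847 for all genes tested. The median absolute log2 change over all genes tested was 0.164, and 63.8% of them had one under 0.25. Shifts as small as those of the 10 genes were common in the table. In the authors' deposited table the adjusted p of the 10 genes ran from 0.748 to 0.988.

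The 4 co-repressors described here shared their extreme libraries. All 4 were at their highest in IAA 2 and all 4 at their lowest in mock 2. Among the receptors, 0 of 6 were highest in IAA 2 and 1 of 6, AFB5, was lowest in mock 2. The receptors also moved together in part, since all 6 lay below their own mean in mock 1 and above it in mock 3. The share of all genes that did so was not computed. Over all tested genes, 12.7% were highest in IAA 2 and 17% were lowest in mock 2. The share of genes with both extremes was not computed. TPR3 varied most, 1.44-fold between these libraries, followed by TPR2 with 1.33-fold, TPL with 1.25-fold and TPR1 with 1.16-fold. TPR4, the remaining member of the TOPLESS family, was nearly level in mock, at 86.209, 85.903 and 85.931 CPM in mock 1 to 3. It was highest in IAA 1, at 98.1 CPM beside 95.8 CPM in IAA 2. Of 12 listed partners and relatives of the co-repressors, only MED12 and SEU, named for this reason, had the same extreme libraries as the 4 co-repressors. Without IAA 2 the log2 changes of TPL, TPR1, TPR2 and TPR3 were 0.066, -0.004, 0.032 and 0.0075. The green shoot markers were at 855.3 CPM in IAA 2, the highest of the IAA libraries, and at 170.9 CPM in mock 2, the lowest of the mock libraries. Over all 6 libraries their order was another, since mock 1 and mock 3 exceeded IAA 2, and IAA 1 lay below mock 2. With their level as a term, 0 of the 10 genes passed the test and the 4 co-repressors had log2 changes from 0.10 to 0.28. The part of green tissue in the pattern was not tested.

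**Figure D3:**
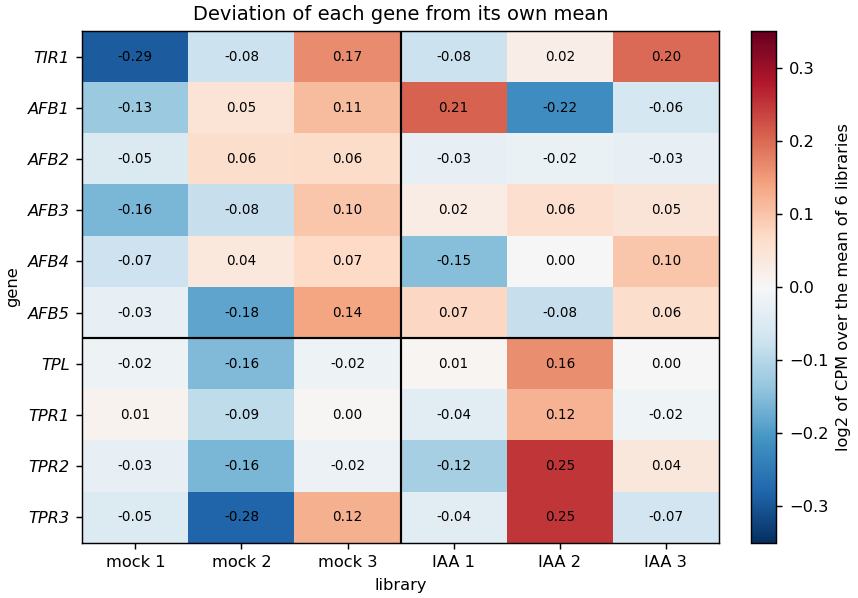
Each cell gives the log2 of a gene's CPM in 1 library (x axis) over that gene's mean of the 6 libraries, for the 10 genes (y axis). Colour follows the printed value, blue below and red above the mean. The lower block of 4 co-repressors is lowest in mock 2, from -0.28 to -0.09, and highest in IAA 2, from 0.12 to 0.25. The 6 receptors above share no single lowest or highest library. All 6 lie below their mean in mock 1, from -0.292 to -0.03, and above it in mock 3, from 0.065 to 0.166.

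The spread within groups differed between members. AFB2 was the steadiest, with a mean coefficient of variation over the 2 groups of 2.35%, and 2.04% of 1766 genes of similar level had a lower one. TIR1 had 12.8%, AFB1 11.8% and TPR3 13.2%, all above the medians of genes at their levels, which lay between 8.9% and 9.68%. TPL had 5.95% and TPR1 5.02%. TIR1 and TPL were also the genes with the most counts, at the 94.6th and 95.5th percentile of all genes tested by average log2 CPM.

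Levels can be compared between genes only per length, and were divided by the exonic length of each gene in RefSeq. In mock, TIR1 was the most abundant transcript of the 10, at 64.2 ± 10.2 CPM per kb (SD, n = 3), followed by AFB1 at 46.6 ± 3.97 and TPL at 45.4 ± 2.48 CPM per kb. The mock ranges of AFB1 and TPL overlapped, while TIR1 was above both in every mock library. AFB5 at 37.1 ± 4.14 and AFB2 at 37.0 ± 1.65 CPM per kb overlapped in their mock ranges. TPR1 at 23.6 ± 0.92, TPR2 at 17.1 ± 0.923, AFB3 at 13.9 ± 1.28, TPR3 at 7.92 ± 1.103 and AFB4 at 6.39 ± 0.323 CPM per kb followed, and the mock ranges of neighbours in this lower part of the order did not overlap. TIR1 ranked above 90.7% of 19738 genes by level per length, AFB4 above 38.3%.

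**Figure D4:**
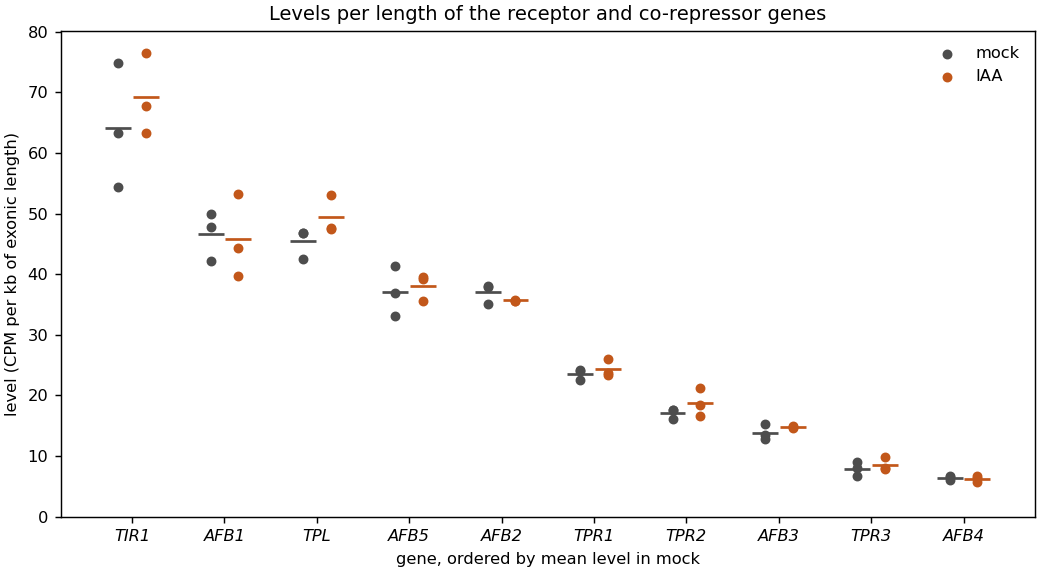
Level per length (y axis, CPM per kb of exonic length, from 0) of the 10 genes (x axis, in the order of their mock means). Grey points are the 3 mock and orange points the 3 IAA libraries, with a line at each mean. TIR1 is highest at 64.2 in mock and AFB4 lowest at 6.39, and the IAA points of each gene lie at about its mock level.

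The order in IAA was the same except that TPL, at 49.4 ± 3.18 CPM per kb, stood above AFB1, at 45.8 ± 6.93, and their IAA ranges overlapped. Summed over the 6 receptors, the level per length was 187.4, 202 and 226 CPM per kb in mock and 212.1, 200 and 217.3 in IAA. TIR1 made up 29.1% to 35.2% of this sum in the 6 libraries, AFB1 19.8% to 25.1%, AFB5 16.4% to 19.7%, AFB2 16.4% to 18.8%, AFB3 6.69% to 7.45% and AFB4 2.7% to 3.22%. The co-repressors summed to 96.6, 87.9 and 97.6 CPM per kb in mock and to 95.5, 110.3 and 97.5 in IAA. TPL held 48% to 49.8% of this sum in every library, a narrow band even though its own level was highest in IAA 2. The receptor and co-repressor sums overlapped between the groups.

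Ratios within a library do not depend on how libraries are scaled. Of 5 ratios of related members that were computed, 2 did not overlap between the groups. Of single genes 22.1% did not, and no such share was computed for ratios of other genes. TPR1 over TPL was 0.471, 0.483 and 0.468 in mock and 0.447, 0.448 and 0.455 in IAA. AFB3 over AFB2 was 0.298, 0.291 and 0.328 in mock and 0.333, 0.34 and 0.339 in IAA. The first was lower and the second higher in all 3 IAA libraries, and neither shift was tested.

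The gene models set limits to these levels. No pair of members within a family shared a 100-base stretch, the read length, in their transcripts, and the longest identical run was 56 bases, between TPL and TPR1. Genes on the opposite strand overlapped 5 of the 10. A noncoding gene of 423 bases (AT4G04455) lies wholly inside AFB1 and one of 638 bases (AT1G04977) wholly inside AFB3, each spanning the miR393 site, and both were at 0 counts in all 6 libraries. AFB4 shares 515 exonic bases with AT4G24380, which rose from 115, 141 and 134 counts in mock to 260, 286 and 279 in IAA (log2 change 1.11, SE 0.14, edgeR adjusted p = 0.0053), and was looked at only because of this overlap. AFB4 itself had 375, 402 and 403 counts in mock and 353, 383 and 402 in IAA. How the authors counted reads in shared stretches is not given in the sources used here, and the part of the overlaps in these levels was not tested. If all reads in the shared stretches had been dropped, the same counts would belong to the exonic bases outside other genes. Divided by that shorter length, AFB1 would be at 58.5 and AFB3 at 20.2 CPM per kb in mock, upper limits at which AFB1 overlapped with TIR1 and AFB3 lay above TPR2.

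Genes for the machinery around the receptors gave 0 calls, beside 4.23% of all genes tested, a share at which 0 calls in lists this short is near the background. Of 16 genes for SCF subunits and for the pathway that attaches the ubiquitin-like protein RUB to the cullin, 14 were tested and 0 were called. CUL1, the cullin scaffold, averaged 310.1 ± 9.38 CPM without and 316 ± 8.26 CPM with IAA (SD, n = 3 here and for the values that follow), and ASK1, the adaptor that binds the F-box, at 288.6 ± 30.0 and 301 ± 32.4 CPM. The median log2 change of the list was 0.044. Of 7 genes for chaperones of the receptor and the phosphatase IBR5, 0 were called. The HSP90 genes HSP90.2, with means of 459 ± 122 and 511 ± 51.1 CPM in mock and IAA, and HSP90.3, at 358 ± 93.8 and 385 ± 27.3 CPM, had the highest mean CPM of the list, a value not divided by length.

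In the miR393 list, which also holds genes of secondary small RNA production, 4 of 6 genes were tested and 0 were called. AGO1, the slicer protein that miRNAs guide, had means of 206 ± 10.8 and 199 ± 5.91 CPM in mock and IAA, and RDR6, an RNA-dependent RNA polymerase, at 42.7 ± 2.80 and 44.4 ± 2.17 CPM. The precursor genes did not reach the test, with 1 count for MIR393a and 8 for MIR393b over the 6 libraries. The mature miR393 was not measured in these libraries, and a change of its precursors could not be assessed from so few counts.

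Among 4 related receptor genes, 0 were called. COI1, the jasmonate receptor and the closest F-box relative of the TIR1 family, had means of 60.8 ± 2.47 and 60.1 ± 2.46 CPM in mock and IAA. SKP2B, an F-box gene linked to cell cycle control, was at 13.5, 14.3 and 16.3 CPM in mock and at 18.8, 25.2 and 27.9 CPM in IAA. Its groups did not overlap, and with a log2 change of 0.70 (SE 0.17, edgeR adjusted p = 0.0629) it just missed the threshold. It was called with DESeq2 (adjusted p = 0.00779), without the low-count filter (0.0434) and without IAA 1 (0.00876).

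Of 12 partners and relatives of the co-repressors, 0 were called, and their median log2 change was 0.10. HDA19, the histone deacetylase that TPL recruits, had means of 154 ± 3.26 and 158 ± 5.79 CPM in mock and IAA, and LUH, a co-repressor of the LEUNIG type, at 131 ± 10.8 and 122 ± 9.14 CPM. TPR4 (AT3G15880), the remaining member of the TOPLESS family and named here for that reason, had means of 86.0 ± 0.169 and 94.8 ± 3.80 CPM in mock and IAA (log2 change 0.14, SE 0.080, edgeR adjusted p = 0.429). Over these 5 lists SKP2B was the only gene with an unadjusted p under 0.05, beside 17.4% of all genes tested. The counts with DESeq2 were the same except for SKP2B, and limma-voom gave 0.

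Genes of the Aux/IAA family, to which the substrates of the receptors belong, contrasted with this. Which of the listed members are bound by the receptors was not tested here. Of 27 tested Aux/IAA genes 17 rose and 1 fell, with a median log2 change of 1.07, beside 3.24% of all genes tested that rose and 0.991% that fell. IAA1, IAA19, IAA11 and IAA13 had the smallest p-values. IAA1 rose 10.9-fold, from 11.002 ± 1.03 to 120.3 ± 9.78 CPM, while the IAA19 level of 9.80 ± 1.19 CPM in mock stood at 207 ± 35.7 CPM in IAA, a 21.1-fold rise. IAA11 rose 6.63-fold and IAA13 5.41-fold. IAA28, the gene that fell (log2 change -0.51, edgeR adjusted p = 0.0481), was not called by limma-voom, with RLE scaling, the stricter filter or the replicate block, or when any single library other than mock 3 was left out.

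**Figure D5:**
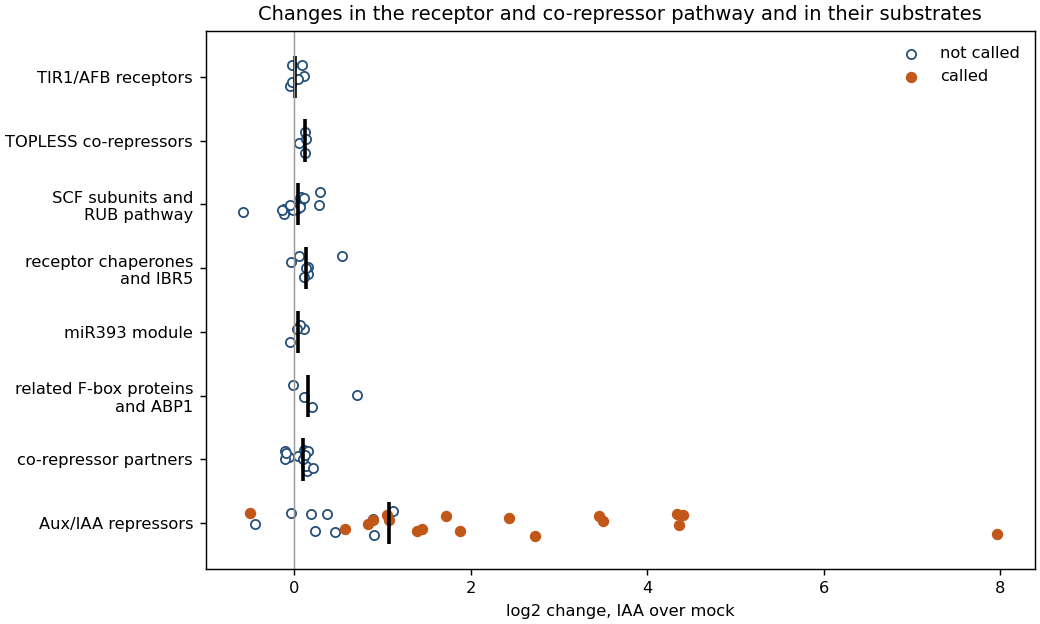
Log2 change of IAA over mock (x axis) of each tested gene in 8 lists (y axis), with filled points for genes that passed the test, open points for those that did not and a vertical bar at each list's median. All filled points are in the Aux/IAA row, 17 to the right of 0 and 1 to the left, and the 7 lists above it hold open points only.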

How the data were processed

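Raw read counts per gene were deposited by the authors for 6 libraries, with 2 technical runs already combined in each column. The build TAIR10 and the tools STAR 2.5.2b, DESeq2 1.26.0, SAMtools and FastQC are named per the submitters' processing notes, without their roles. Which tool counted the reads, over which annotation and with which strand setting, is not given in the sources used here. The authors' deposited comparison holds a mean normalized signal, log2 fold changes with standard errors on the log2 scale, the Wald statistic as a score, and a p-value with its adjusted form, per the file headers.

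Here edgeR 4.0.16 (R 4.3.3; glmQLFit and glmQLFTest, robust, TMM, filterByExpr, group as the only term) was fitted to all genes and was tested on simulated data. Standard errors are the absolute log2 change divided by the square root of F, and 95% intervals use the t quantile of the total degrees of freedom. Alternatives were DESeq2 1.42.0, limma-voom (limma 3.58.1), other scalings, filters and thresholds, the replicate number as a block, leaving out each library, and 2 added after seeing the data, the green shoot marker level as a term and another length. The members and gene lists were chosen with earlier results of these data known. Named genes outside the members were the called genes of each list, at most 4 by smallest p, or the 2 highest by mean CPM, and any others are said to be so. Symbols, coordinates and sequences come from RefSeq's TAIR10.1, matched by locus. The deposited tables hold no coordinates.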

Additional observations from a re-analysis of the deposited data

How the results depend on the processing

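The counts of 0 calls among the 6 receptor and 4 co-repressor genes, and among the SCF and RUB, miR393 and co-repressor partner lists, were the same under all alternatives run. Related receptor genes gave 1 call (SKP2B) with DESeq2 and without the low-count filter. Leaving out single libraries gave 0 to 1 calls among related receptors and 0 to 1 among chaperones (SGT1A, named after its value was seen, adjusted p = 0.00745 without IAA 1). The count of Aux/IAA genes that fell was 0 with limma-voom, RLE scaling, the replicate block, a filter of 1 CPM and 10 counts in 3 libraries, a minimum of 2-fold or an adjusted p under 0.01, and 0 to 1 with libraries left out. Over all genes DESeq2 called 1096 higher and 560 lower, an adjusted p under 0.01 left 272 and 39, and a minimum of 2-fold 381 and 92. Leaving out single libraries gave 260 to 839 higher and 47 to 433 lower. Deviations from the group mean correlated between same-numbered mock and IAA libraries at r = 0.123, -0.442 and 0.218 for numbers 1, 2 and 3. Between libraries of different number r ran from -0.371 to 0.315. Deviations within a group of 3 sum to 0, which ties these values to one another. They therefore say little about whether the numbers pair the samples. With the replicate block 462 genes were higher and 149 lower. The log2 changes of the members kept their sign under 14 alternatives for TIR1 (0.0026 to 0.23), AFB2 (-0.090 to -0.022), AFB3 (0.033 to 0.16), TPL (0.066 to 0.19), TPR2 (0.032 to 0.23) and TPR3 (0.0075 to 0.28), while AFB1 (-0.15 to 0.067), AFB4 (-0.078 to 0.038), AFB5 (-0.024 to 0.12) and TPR1 (-0.004 to 0.10) crossed 0. The lowest adjusted p of any member was 0.243, for TPR3. Per kb of coding length the mock levels were 95.2 for TIR1, 61.6 for AFB1, 58.6 for AFB2, 58.1 for TPL, 50.3 for AFB5, 27.8 for TPR1, 19.7 for TPR2, 17.9 for AFB3, 9.96 for AFB4 and 9.07 CPM per kb for TPR3, so AFB2 moved above TPL and AFB5, and AFB4 above TPR3. Divided by the exonic length outside other genes AFB1 was at 58.5, AFB3 at 20.2 and AFB4 at 7.77 CPM per kb. The SE of the members ran from 0.081 for AFB2 to 0.14 for TIR1 and TPR3.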

Other observations

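The genes whose levels were most like those of TIR1 over the 6 libraries, by Pearson's r of log2 CPM, were AT4G24820 (0.997), AT3G13230 (0.996) and AT3G45030 (0.993). For TPL they were TRA2 (0.99), FIO1 (0.989) and AT2G20560 (0.988). An r of at least 0.9 was found for 377 genes (1.91%) with TIR1 and 183 genes (0.925%) with TPL. In the 250 bases before the annotated gene start, the auxin response element TGTCTC was found on either strand in 1 of 6 receptor genes, AFB5, and in 0 of 4 co-repressor genes, beside 10.9% of 27443 protein-coding genes. The variant TGTCGG was found in 0 of the 10, beside 4.16% of those genes.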
